A study of Homo sapiens with 15 samples.

Results

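The 41 genes described here encode the actin cytoskeleton and the focal adhesion, the protein plaque that ties actin filaments to the extracellular matrix. They were taken by symbol: every probe set annotated to 1 of these symbols alone counted, which gave 73 of the array's 22283 probe sets for 39 of the 41 genes. Gene expression had been measured in total RNA of A549 cells, an established epithelial line from a lung adenocarcinoma that the labels call bronchial, on 15 Affymetrix human expression arrays. The 5 groups of 3 arrays were cells given interleukin-13 (IL-13) for 4 h, 12 h or 24 h, untreated cells at 24 h (control 24 h) and untreated cells at 0 h (control 0 h). All groups are the same tumour line in culture, no dose of IL-13 is given in the labels, and no untreated cells at 4 h or 12 h are among the samples used here, where IL-13 and time in culture therefore cannot be told apart. The labels do not say whether arrays of a group came from separate cultures, so p-values reflect only the spread among these arrays, and that spread may be technical.

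Actin exists as monomers and as filaments. Profilin and cofilin bind and turn over actin, the Arp2/3 complex branches filaments, and capping protein and gelsolin cap or cut them. Alpha-actinin, filamin, plectin and non-muscle myosin crosslink or contract filaments, and tropomyosins, calponins and transgelins lie along them. At the focal adhesion talin links integrins to actin, while zyxin, vinculin, paxillin and the complex of integrin-linked kinase with parvin assemble around that link. IL-13 is a cytokine of allergic airway inflammation that acts on airway epithelium.

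Of the 41 genes, 38 passed a filter on mean signal and were tested with 6884 genes in all. FLNA, which encodes filamin A, had no probe set under its symbol in the annotation used here and was not analysed. ACTG1, gamma-actin, was represented only by 8 probe sets annotated to both ACTG1 and ACTB. ARHGDIB, a gene best known in blood cells, lay below the filter, with a mean deposited signal of 9.92. The arrays carried the markers of the line: 5 of 6 epithelial markers and 4 of 4 measured markers of A549 cells passed the filter. Of the other cell types, 3 of 6 smooth muscle, 1 of 6 fibroblast, 1 of 4 endothelial and 0 of 4 measured leukocyte markers passed. MYH11, the defining smooth muscle myosin, averaged 10.4, below the filter. Median signals of the arrays ran from 56.7 to 72.5, and arrays of a group correlated at 0.972 to 0.979. In bulk RNA, fewer cells of a kind and less RNA per cell cannot be told apart.

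The mean over the 39 genes was lower at 24 h than at 0 h, with IL-13 and without it. The mean normalized log2 signal of the set was 9.42, 9.29 and 9.29 on the control 24 h arrays, against 9.64, 9.62 and 9.66 on the control 0 h arrays, a difference of -0.31. Differences are on the scale of log2(signal + 20), which understates those of dim genes. All 3 control 24 h arrays lay below all 3 control 0 h arrays, while the mean difference over all tested genes was -0.0041. With IL-13 the set mean was 9.60 ± 0.08 at 4 h, 9.44 ± 0.07 at 12 h and 9.35 ± 0.05 at 24 h (SD, n = 3). Against control 0 h these means differed by -0.04 at 4 h, with overlapping arrays, and by -0.20 at 12 h and -0.29 at 24 h, where every array lay lower. Between IL-13 24 h and control 24 h the set mean differed by 0.01 and the arrays overlapped. The set mean is a description of genes chosen with results of these data known, and it has no test.

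**Figure D1:**
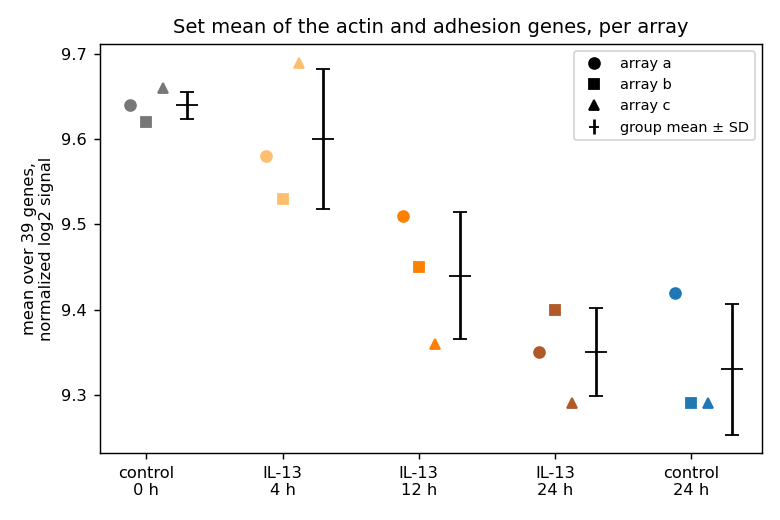
Mean normalized log2 signal of the 39 genes (vertical axis) on each array by group and time (horizontal axis); points are arrays, shaped by replicate letter, and bars the group mean ± SD. The IL-13 24 h and control 24 h arrays overlap, at means of 9.35 and 9.33, and lie below the control 0 h arrays, at 9.64.

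Compared with the time-matched control, and with the probe sets used, 4 of the 38 tested genes were higher after 24 h of IL-13 and none was lower. They were GSN, ENAH, PARVA and CORO1C, a severing protein, a filament elongator, an adhesion adaptor and a filament-binding protein, though the other probe sets of PARVA went against its call. Across the 6884 tested genes 7.00% differed in this comparison, 3.94% higher and 3.07% lower, beside 10.5% of the 38. Of the 695 tested genes at least as bright as the median member 12.9% differed. The median difference of the 38 genes was -0.05 log2, with 23 below 0. For all tested genes it was 0.00, with 49.7% below 0, and for the 695 as bright 0.02, with 46% below 0. The summed signal of the 6 fibroblast markers was 141 to 185 in IL-13 24 h and 233 to 273 in control 24 h, with all but THY1 below the filter, and its part in the 4 differences was not tested. With arrays scaled to equal medians 8 of the 38 genes were higher and none lower, while the median of all tested genes moved to 0.14, with 950 genes higher and 66 lower in place of 271 and 211.

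The untreated cells themselves changed over 24 h: 9 of the 38 genes were lower in control 24 h than in control 0 h and none was higher. The 9 were ARHGDIA, CORO1C, ZYX, PARVA, ACTN4, TAGLN, MYH9, TLN1 and MSN, from the signalling genes, the capping and severing proteins, adhesion plaque, crosslinkers, transgelins, myosin and membrane linkers. The 2 other probe sets of PARVA gave 0.47 and 0.15 here, and the mean of its sets was not called. Among all tested genes 3.62% differed, 1.73% higher and 1.89% lower, beside 23.7% of the 38 and 6.33% of the 695 genes as bright. The median difference of the 38 was -0.22 log2, with 33 below 0. That of all tested genes was 0.00, with 50.5% below 0, and that of the 695 as bright was -0.03, with 58.1% below 0. The result depends on how arrays are put on 1 scale. With arrays scaled to equal medians, 26 of the 38 were lower and none higher, the set mean differed by -0.53, and the median of all tested genes itself moved to -0.15 with 51 genes higher and 818 lower, in place of 119 and 130. A sign of RNA integrity, the ratio of 3' to 5' signal of beta-actin control probe sets, averaged 1.17 ± 0.07 over the control 24 h arrays, against 1.0 ± 0.07 over the control 0 h arrays (SD, n = 3). The IL-13 24 h arrays averaged 1.18 ± 0.08. The same ratio of the GAPDH control probe sets differed less between these groups. It averaged 0.896 ± 0.02 in control 24 h, 0.881 ± 0.02 in control 0 h and 0.869 ± 0.03 in IL-13 24 h. The part of RNA integrity in the lower signals was not tested.

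Set against the same control 0 h arrays, none of the 38 genes differed at 4 h of IL-13 by limma's adjusted p. Of all tested genes 1.22% differed, 0.349% higher and 0.872% lower, as did 2.45% of the 695 as bright. At 12 h GSN was higher and ZYX, ARHGDIA, CDC42EP1 and RHOB were lower, 13.2% of the 38, beside 4.14% of all tested genes, 1.55% higher and 2.59% lower, and 8.63% of the 695 as bright. At 24 h GSN and ENAH were higher and 12 genes were lower, 36.8% of the 38, beside 6.87% of all tested genes, 3.40% higher and 3.47% lower, and 13.1% of the 695 as bright. The 12 were ZYX, PLEC, ACTN4, TLN1, MYH9, TPM1, CNN2, TAGLN, ARHGDIA, CDC42EP1, ILK and MSN. The median differences of the 38 genes were 0.01, -0.15 and -0.24 log2 at 4 h, 12 h and 24 h. These comparisons share the control 0 h arrays with that of the untreated cells, so their values stand side by side and are not independent. Their groups also differ in time in culture, which cannot be told apart from IL-13 in them. Over all 5 groups 21 of the 38 genes differed in limma's moderated F test (55.3%), as did 18.1% of all tested genes and 30.2% of the 695 as bright.

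**Figure D2:**
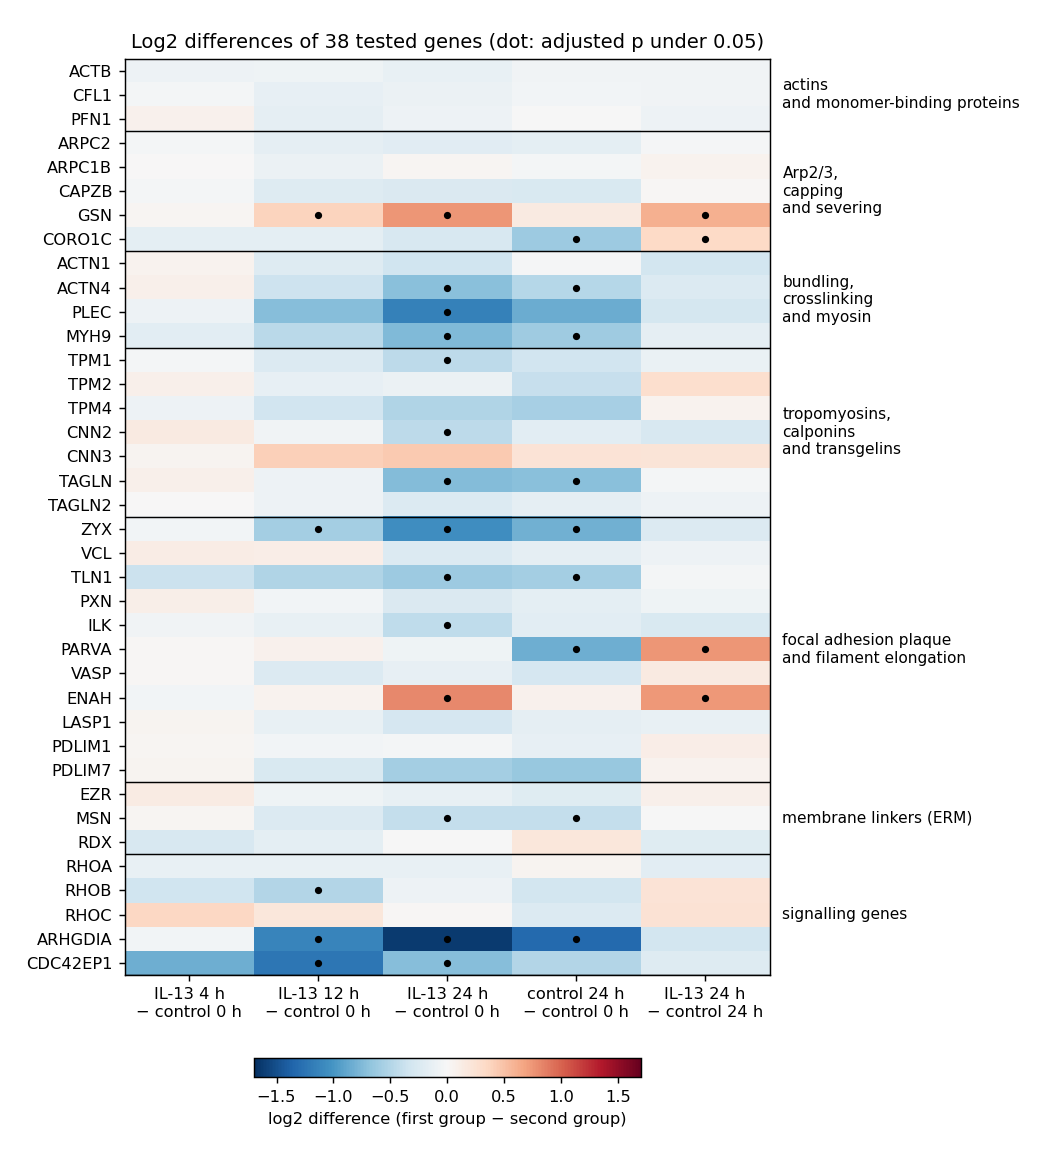
Log2 difference of each of the 38 tested genes (rows, ordered by role) in 5 comparisons (columns), with colour from lower (blue) to higher (red) and a dot where the adjusted p was under 0.05. Lower values fill most of the columns for control 24 h and for 12 h and 24 h of IL-13 against control 0 h, and the 4 dotted values of IL-13 24 h against control 24 h are all higher.

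The actins and the proteins that bind their monomers gave small differences. ACTB, beta-actin, had deposited signals of 11188, 8796 and 8850.0 in IL-13 24 h, against 11376, 10553 and 12269 in control 24 h and 10037, 13212 and 10959 in control 0 h. The groups overlapped, and none of the 3 tested genes of this role, ACTB, CFL1 (cofilin) and PFN1 (profilin), passed the test in the 5 comparisons. Their log2 differences lay between -0.09 and -0.06 for IL-13 24 h against control 24 h and between -0.06 and 0.00 for control 24 h against control 0 h. The 8 probe sets shared by gamma- and beta-actin differed by -0.30 to -0.11 between IL-13 24 h and control 24 h, and by -0.12 to 0.05 between control 24 h and control 0 h. These sets and those of ACTB are of a kind prone to cross-hybridization.

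Among the capping, severing and branching proteins, GSN and CORO1C moved. GSN encodes gelsolin, which cuts filaments and caps their ends. Its signals were 432, 353 and 388 in IL-13 24 h, against 234, 261 and 260.2 in control 24 h. The lowest treated array lay above every control array. The difference was 0.60 ± 0.10 log2 (1.52-fold, limma adjusted p = 0.00155). In control 0 h GSN read 222, 233 and 216, and with IL-13 it read 219, 229.5 and 221 at 4 h and 293, 283 and 291 at 12 h. So the 4 h arrays lay within the untreated range and the 12 h arrays above it. Against control 0 h GSN was 0.37 ± 0.10 higher at 12 h (adjusted p = 0.0362) and 0.76 ± 0.10 higher at 24 h (1.69-fold, adjusted p = 0.000129). The 12 h call was lost in 11 of 17 other settings, among them each of the 3 other scalings and the replicate block.

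CORO1C encodes coronin 1C, a filament-binding protein of the leading edge. It had 1313, 1260.5 and 1259 in IL-13 24 h, against 891, 1014 and 882 in control 24 h, and 1772, 1506 and 1362 in control 0 h. The control 24 h arrays were the lowest of the 3 groups, with no overlap. CORO1C was 0.62 ± 0.10 lower in control 24 h than in control 0 h (1.53-fold, adjusted p = 0.00208) and 0.34 ± 0.10 higher in IL-13 24 h than in control 24 h (1.26-fold, adjusted p = 0.0434). Both comparisons use the control 24 h arrays, and the second lost its call in 9 of 17 other settings, such as without IL-13 24 h array a, b or c. CAPZB, the beta subunit of capping protein, differed over the 5 groups (F test, adjusted p = 0.0313). It had 739, 778 and 728 in control 24 h, against 961, 999.9 and 917 in control 0 h, a difference of -0.26 ± 0.08 that missed the threshold (adjusted p = 0.065), while another CAPZB set, prone to cross-hybridization, passed it there (-0.41, adjusted p = 0.0218). The Arp2/3 subunits ARPC2 and ARPC1B did not pass the F test (adjusted p = 0.256 and 0.882).

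Among crosslinkers and myosin, ACTN4 and MYH9 were lower than in control 0 h in both 24 h groups and PLEC in IL-13 24 h. ACTN4, a non-muscle alpha-actinin that bundles filaments, had 2122, 1675 and 2010.2 in control 24 h, against 2843, 2779 and 3222 in control 0 h. With IL-13 it had 3071, 3051 and 3591 at 4 h, 2702, 2356 and 2033 at 12 h and 1762, 1715 and 1796 at 24 h. The 24 h arrays of both kinds lay below all control 0 h arrays. The log2 differences of ACTN4 were -0.48 ± 0.11 in control 24 h (1.4-fold, adjusted p = 0.0177) and -0.72 ± 0.11 in IL-13 24 h (1.64-fold, adjusted p = 0.000514). MYH9, the heavy chain of non-muscle myosin IIA, had 420.1, 350.2 and 285 in control 24 h and 389, 241 and 341 in IL-13 24 h, against 600.2, 554 and 499 in control 0 h. Neither 24 h group overlapped control 0 h, and the log2 differences were -0.60 ± 0.16 (adjusted p = 0.0379) and -0.76 ± 0.16 (adjusted p = 0.0063).

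PLEC, plectin, which links actin to intermediate filaments, had 162, 122 and 85.8 in IL-13 24 h, with 248, 129 and 131 in control 24 h, against 299, 276 and 323 in control 0 h. All 24 h arrays lay lower, and IL-13 24 h differed from control 0 h by -1.15 ± 0.25 (2.22-fold, adjusted p = 0.00982), while control 24 h missed the threshold at -0.85 ± 0.25 (adjusted p = 0.0691). A second PLEC probe set differed by only -0.17 and 0.05 in these comparisons, so the 2 sets disagree. ACTN1, the other non-muscle alpha-actinin, had 1146, 1671 and 1152 in IL-13 24 h, against 1478, 1572 and 1356 in control 24 h and 1585, 1627 and 1704 in control 0 h. In these signals the IL-13 24 h arrays overlapped both controls and the control 24 h arrays lay below those of control 0 h. After normalization control 24 h differed from control 0 h by only -0.02 log2. ACTN1 did not pass the test with the probe set used (-0.32 ± 0.13 for IL-13 24 h against control 24 h, adjusted p = 0.139). Its 2 other probe sets, of a kind prone to cross-hybridization, gave -0.52 and -0.53 for IL-13 24 h against control 0 h (adjusted p = 0.00739 and 0.0102).

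Of the 7 filament-side proteins, tropomyosins, calponins and transgelins, TAGLN was lower in control 24 h and TPM1, CNN2 and TAGLN in IL-13 24 h, each against control 0 h. TAGLN, transgelin, an actin-binding protein abundant in smooth muscle, had 219, 270.4 and 187 in control 24 h, against 406, 428 and 302 in control 0 h. With IL-13 it had 357, 363 and 466 at 4 h, 392, 366 and 288 at 12 h and 238, 224 and 179 at 24 h. The lower values were those of both 24 h groups. The log2 differences from control 0 h were -0.71 ± 0.16 in control 24 h (1.63-fold, adjusted p = 0.0209) and -0.74 ± 0.16 in IL-13 24 h (1.67-fold, adjusted p = 0.0081). The summed signal of the 6 smooth muscle markers was 411 to 472 in IL-13 24 h, 495 to 534 in control 24 h and 510 to 597 in control 0 h, with CNN1 and DES also below the filter; its part in these values was not tested.

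TPM1, a tropomyosin, had 2465, 2725 and 2567 in IL-13 24 h, against 2876, 4404 and 3758 in control 0 h, and differed by -0.44 ± 0.11 (adjusted p = 0.0228). With the probe set used, control 24 h missed the threshold (-0.33 ± 0.11, adjusted p = 0.108), but 2 other TPM1 sets gave -0.58 and -0.65 there (adjusted p = 0.00501 and 0.00134). The latter is of the kind prone to cross-hybridization. A further TPM1 set missed the threshold there (-0.44, adjusted p = 0.0814). CNN2, calponin 2, which binds filaments in many non-muscle cells, had 297, 315 and 254 in IL-13 24 h, against 378, 401 and 423 in control 0 h. Its arrays did not overlap, and it differed by -0.45 ± 0.12 (adjusted p = 0.0289). The only CNN2 probe set is of the kind prone to cross-hybridization. CNN3, calponin 3, ran the other way without passing the test: 145, 144 and 143 in IL-13 24 h, against 92.7, 109 and 95.8 in control 0 h (0.45 ± 0.15, adjusted p = 0.0793).

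In the focal adhesion plaque ZYX and TLN1 were lower in both 24 h groups than in control 0 h, and ENAH was higher in IL-13 24 h. ZYX encodes zyxin, a LIM protein that gathers at strained filaments and adhesions. It had 484, 439 and 488 in control 24 h, against 797, 929 and 917 in control 0 h. With IL-13 it had 739, 848 and 976 at 4 h, 653, 567 and 499 at 12 h and 441, 483 and 326 at 24 h. The 12 h and both 24 h groups lay wholly below control 0 h. The log2 differences were -0.81 ± 0.14 in control 24 h (1.76-fold, adjusted p = 0.00303), -0.58 ± 0.14 at 12 h of IL-13 (adjusted p = 0.0208) and -1.05 ± 0.14 at 24 h of IL-13 (2.07-fold, adjusted p = 0.000129). A second ZYX probe set, prone to cross-hybridization, gave -0.73 in control 24 h and -1.24 in IL-13 24 h, both past the threshold, and also -0.51 for IL-13 24 h against control 24 h (adjusted p = 0.0375), where the set used gave no call.

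TLN1, talin, which joins integrins to actin, had 161, 111 and 134 in control 24 h and 134, 127 and 104 in IL-13 24 h, against 249, 181 and 178 in control 0 h. Neither 24 h group overlapped control 0 h. The differences were -0.58 ± 0.16 (adjusted p = 0.0495) and -0.62 ± 0.16 (adjusted p = 0.0242), and the first was lost in 10 of 17 other settings. ILK, the integrin-linked kinase, had 474, 536 and 407 in IL-13 24 h, against 595, 692 and 660.5 in control 0 h (-0.43 ± 0.11, adjusted p = 0.0197), while control 24 h was not called.

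ENAH encodes Mena, which feeds actin monomers onto growing filament ends. It had 607, 838 and 1017 in IL-13 24 h, against 467, 466 and 431 in control 24 h. Control 0 h arrays had 459, 417 and 463, and those of 12 h of IL-13 had 481, 472 and 423. The 3 arrays of IL-13 24 h stood apart from all others shown and spread widely among themselves. ENAH was 0.74 ± 0.13 higher than in control 24 h (1.67-fold, adjusted p = 0.00316) and 0.81 ± 0.13 higher than in control 0 h (1.76-fold, adjusted p = 0.00119). The calls of GSN and ENAH in these comparisons held in all 17 other settings.

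PARVA, alpha-parvin, the partner of integrin-linked kinase, had 126, 122 and 110.3 in IL-13 24 h, against 53.7, 71.2 and 91.6 in control 24 h, and 103, 137 and 148 in control 0 h. The control 24 h arrays were the lowest of the 3 groups. It was 0.75 ± 0.18 higher in IL-13 24 h than in control 24 h (adjusted p = 0.0152) and differed by -0.83 ± 0.18 between control 24 h and control 0 h (adjusted p = 0.0139). Its 2 other probe sets went against the first result, at -0.85 (adjusted p = 0.0426) and -0.05, and the mean of the 3 sets differed by -0.05 (adjusted p = 0.853), so no direction can be given for PARVA. The probe sets of PXN, paxillin, disagreed in size. The set used had 362, 282 and 382 in control 24 h, against 429, 449 and 311 in control 0 h, while another had 131, 63.3 and 58.7 in control 24 h, against 319, 222 and 261 in control 0 h, a difference of -1.62 (adjusted p = 0.000315) named here after its values were seen. PDLIM7, a PDZ and LIM domain protein of stress fibres, passed only the F test (adjusted p = 0.0233), with 202, 117 and 138 in control 24 h, against 245, 247 and 217 in control 0 h. The remaining plaque genes, VCL (vinculin), VASP, LASP1 and PDLIM1, were not called in the 5 comparisons.

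**Figure D3:**
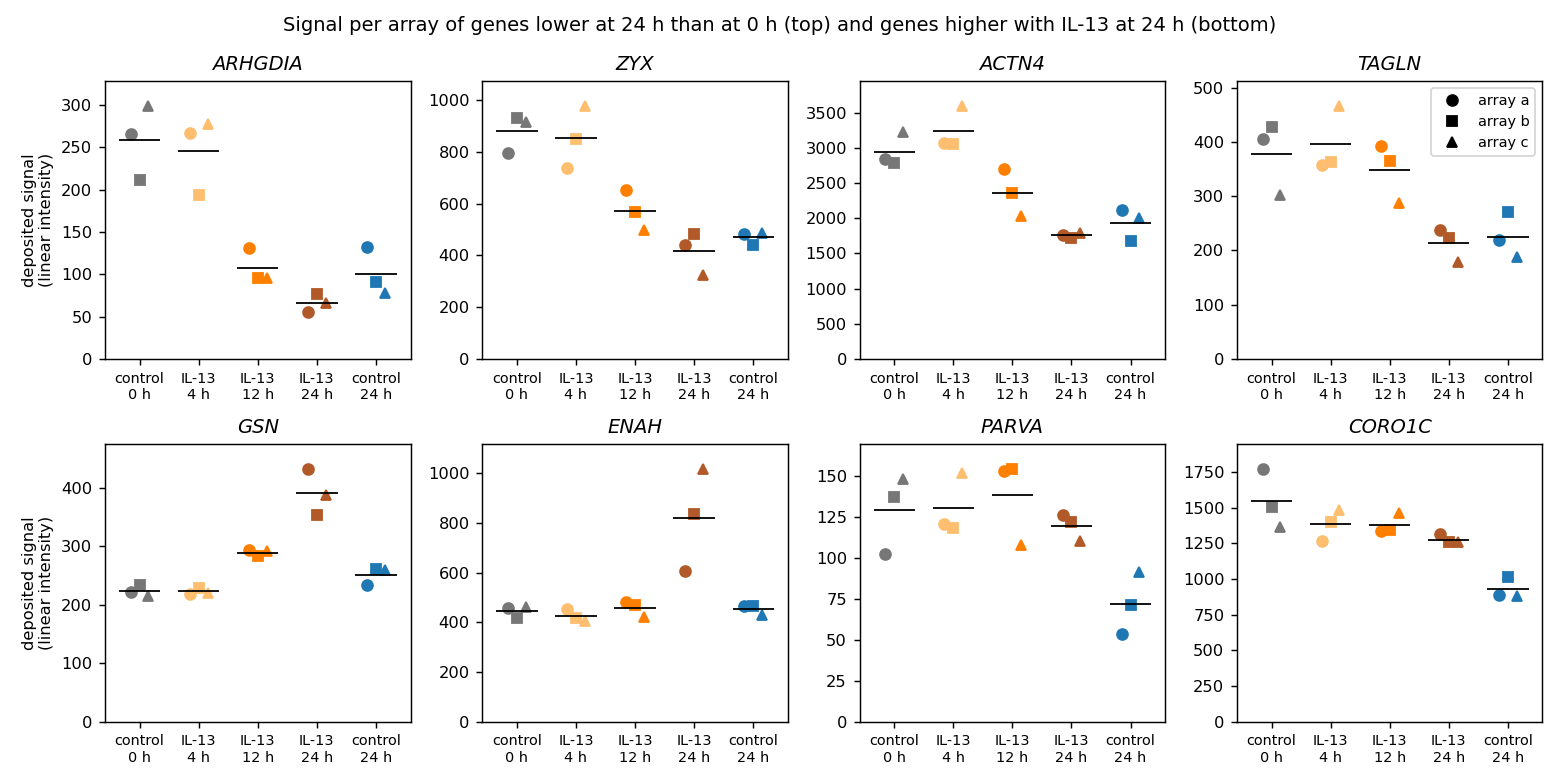
Deposited signal of single genes (vertical axis, linear, from 0) on each array by group and time (horizontal axis); points are arrays, shaped by replicate letter, and bars the group mean. ARHGDIA, ZYX, ACTN4 and TAGLN are low in both 24 h groups, GSN and ENAH are high in IL-13 24 h, and PARVA and CORO1C are lowest in control 24 h.

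Of the membrane linkers ezrin, radixin and moesin, which tie filaments to the plasma membrane, MSN was lower in both 24 h groups. MSN, moesin, had 1020.1, 874 and 863 in control 24 h and 1049.7, 903 and 1006 in IL-13 24 h, against 1137, 1286 and 1491 in control 0 h. Neither 24 h group overlapped control 0 h, and the differences were -0.41 ± 0.11 in both (adjusted p = 0.05, under the threshold before rounding, and 0.032). Each of these 2 calls was lost in 9 of 17 other settings. RDX, radixin, passed the F test (adjusted p = 0.0177) with 1256, 1159 and 1284 in IL-13 24 h, against 1278, 1469.7 and 1145 in control 24 h, and no call between groups. EZR, ezrin, did not pass (F test, adjusted p = 0.216).

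Among the signalling genes ARHGDIA was lower in both 24 h groups and at 12 h of IL-13, and CDC42EP1 at 12 h and 24 h of IL-13. ARHGDIA, a widely expressed GDP dissociation inhibitor, had 133, 90.5 and 78.2 in control 24 h, against 266, 211 and 299 in control 0 h. With IL-13 it had 267, 194 and 277 at 4 h, 131, 95.9 and 95.4 at 12 h and 55.7, 76.8 and 66.5 at 24 h. The 4 h arrays overlapped those of control 0 h and all later arrays lay below them. The log2 differences from control 0 h were -1.32 ± 0.18 in control 24 h (2.49-fold, adjusted p = 0.000711), -1.12 ± 0.18 at 12 h of IL-13 (2.17-fold, adjusted p = 0.00133) and -1.62 ± 0.18 at 24 h (3.08-fold, adjusted p = 3.63e-05). The 3 other ARHGDIA probe sets, prone to cross-hybridization, gave -1.10, -0.94 and -0.56 in control 24 h and were called there too. At 12 h of IL-13 they gave -0.66, -0.84 and -0.49, the last not called (adjusted p = 0.064). At 24 h of IL-13 they gave -1.19, -1.25 and -0.85, all called. The set used was the dimmest, with a mean log2 signal of 7.28 against 8.26, 9.31 and 9.82, and gave the largest of these differences.

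CDC42EP1, an effector of the GTPase CDC42, had its lowest mean at 12 h of IL-13. It had 233, 266 and 245 in control 0 h, 118, 113 and 155 at 4 h, 87.4, 115 and 81.7 at 12 h and 129, 182 and 109 at 24 h of IL-13. All treated arrays lay below the control 0 h arrays. The differences were -0.83 ± 0.20 at 4 h (adjusted p = 0.0555), -1.22 ± 0.20 at 12 h (2.33-fold, adjusted p = 0.00175) and -0.72 ± 0.20 at 24 h (adjusted p = 0.041). The control 24 h arrays read 243, 117 and 175 and overlapped control 0 h. RHOB had 622, 693 and 605 at 12 h of IL-13, against 887, 933 and 981 in control 0 h (-0.50 ± 0.13, adjusted p = 0.0295). RHOC differed over the 5 groups (F test, adjusted p = 0.013), with 1141, 1195 and 1423 at 4 h of IL-13, against 839, 1155 and 958 in control 0 h. These deposited values overlapped and the difference was not called (adjusted p = 0.21). RHOA was not called either.

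Within the IL-13 arrays, 4 of the 38 genes (10.5%) differed between 24 h and 12 h. Of all tested genes 6.20% did, 4.14% higher and 2.06% lower, as did 11.5% of the 695 as bright. ENAH was 0.76 ± 0.13 higher at 24 h (adjusted p = 0.00238) and GSN 0.38 ± 0.10 higher (adjusted p = 0.0262). TAGLN differed by -0.66 ± 0.16 (1.58-fold, adjusted p = 0.0191) and ZYX by -0.48 ± 0.14 (adjusted p = 0.0439). Between 12 h and 4 h no tested gene passed in limma's test (0.00% of all).

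**Figure D4:**
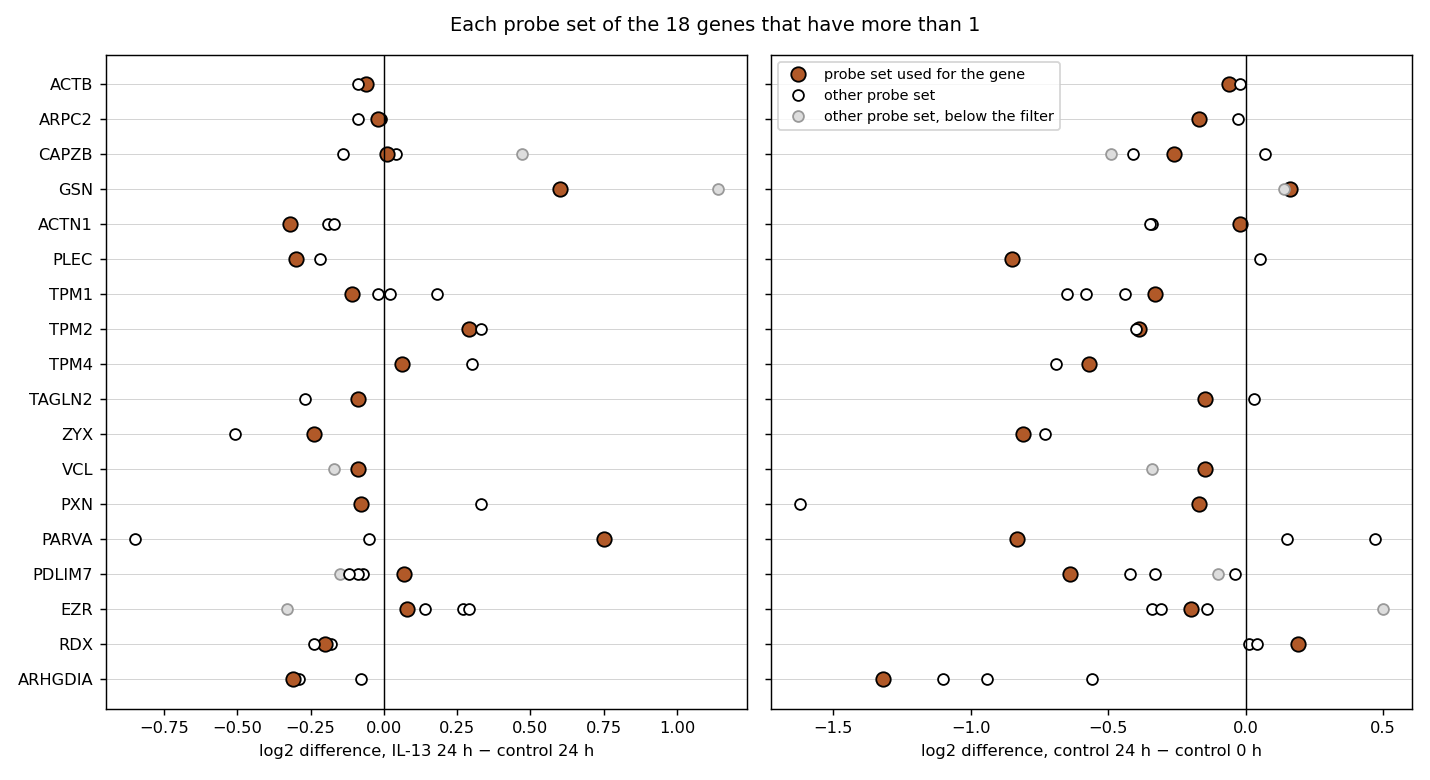
Log2 difference of every probe set of the genes with several (horizontal axis), by gene (vertical axis), for IL-13 24 h against control 24 h and control 24 h against control 0 h; brown points are the sets used, open points the others and grey points others below the filter. PARVA and PXN show sets that lie far apart, while the 4 ARHGDIA sets are all below 0 in the second comparison.

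Several genes had more than 1 probe set. For 18 genes with 34 further sets, 23 of the 34 had the sign of the set used for IL-13 24 h against control 24 h and 28 for control 24 h against control 0 h. Against control 0 h the counts were 17, 29 and 31 of 34 at 4 h, 12 h and 24 h of IL-13. Probe sets of a gene share its RNA and arrays and are not replicates.

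Of the 32 called differences in the 5 comparisons, 13 held when any 1 array was left out, and they were those of GSN and ENAH in IL-13 24 h against both controls, of ZYX, ARHGDIA and CORO1C in control 24 h, of ARHGDIA and CDC42EP1 at 12 h of IL-13, and of ZYX, ACTN4, MYH9 and ARHGDIA in IL-13 24 h against control 0 h. The other 19 kept their sign but missed the threshold without at least 1 of the 6 arrays compared. In IL-13 24 h against control 0 h, PLEC (-0.98, adjusted p = 0.0634) and TAGLN (-0.64, adjusted p = 0.0548) missed it without IL-13 24 h array c alone. There TLN1 missed it without control 0 h a or IL-13 24 h b or c (adjusted p up to 0.125), and ILK without control 0 h b or c or IL-13 24 h c (up to 0.127). TPM1 missed it when any 1 of 4 arrays was left out (up to 0.124), and CNN2, MSN and CDC42EP1 when any 1 of 5 arrays was left out (up to 0.155, 0.163 and 0.197). In control 24 h, ACTN4 missed it without control 0 h c or control 24 h b or c (up to 0.0788), and PARVA without control 0 h b or c or control 24 h a (up to 0.0706). TAGLN and MSN missed it when any 1 of 4 arrays was left out (up to 0.104 and 0.199), and MYH9 and TLN1 when any 1 of 5 arrays was left out (up to 0.16 and 0.192). At 12 h of IL-13, ZYX missed it when any 1 of 4 arrays was left out (up to 0.104), RHOB when any 1 of 5 arrays was left out (up to 0.112) and GSN when any 1 of 6 arrays was left out (up to 0.124). In IL-13 24 h against control 24 h, PARVA missed it without array a of either group (up to 0.0787) and CORO1C when any 1 of 5 arrays was left out (up to 0.14).

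Other genes of the pathway, 103 by list, gave 72 that were tested. The share of them called was 8.33% for IL-13 24 h against control 24 h and 12.5% for control 24 h against control 0 h, beside 7.00% and 3.62% of all tested genes. Against control 0 h it was 2.78%, 9.72% and 5.56% at 4 h, 12 h and 24 h of IL-13, beside 1.22%, 4.14% and 6.87%. For IL-13 24 h against control 24 h 2 rose and 4 fell: CAPZA2, a capping subunit (0.39), and PDLIM2 (0.60) rose, and PDLIM5 (-0.39), MYH10, non-muscle myosin IIB (-0.34), LPP, a zyxin relative (-0.63), and MARCKSL1 (-0.34) fell. In control 24 h against control 0 h 3 rose and 6 fell. Among these, PDLIM5 (0.65) and LPP (0.73) rose, and PDLIM2 (-0.90), TES (-0.39), SPTAN1, a spectrin (-0.64), and CRKL, an adhesion adaptor (-0.46), fell. So among the untreated cells ZYX was lower at 24 h and LPP higher. The median difference of the 72 was -0.03 in that comparison, beside -0.22 for the 38. Against control 0 h, 2 fell and none rose at 4 h of IL-13, RND3 (-0.79), and FHL2, a LIM cofactor (-0.52). At 12 h 1 rose and 6 fell, and at 24 h 1 rose and 3 fell, among them FSCN1, the bundling protein fascin (-0.83).

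Many cytoskeletal genes are controlled by serum response factor, which binds the CArG box, and GC boxes bound by Sp factors are common near start sites. RefSeq promoter windows (GRCh38.p14), from 250 bases before to 50 after a start, were at hand for 36 of the 41 genes, 61 windows in all. They were searched on both strands. ACTB, ARPC1B, PARVA, PLEC and TAGLN had no window at hand and were not searched. The CArG box was in 6 of the 61 windows (9.84%), beside 1.29% of all 35116 windows. The motif GGGCGG was in 77% against 45%, GGAATG (TEAD) in 9.84% against 14%, and the STAT motif, TTC and GAA around 4 bases of any kind, in 4.92% against 6.44%. These matches are descriptions of letters and not of binding. The windows of ZYX and ARHGDIA, lower with time, and ENAH, higher with 24 h of IL-13, are shown with GGGCGG or its reverse complement CCGCCC in capitals, each read along its gene's strand. ZYX lies at chr7:143381095-143381394 (+), ARHGDIA at chr17:81871288-81871587 (-) and ENAH at chr1:225653074-225653373 (-).
ZYX: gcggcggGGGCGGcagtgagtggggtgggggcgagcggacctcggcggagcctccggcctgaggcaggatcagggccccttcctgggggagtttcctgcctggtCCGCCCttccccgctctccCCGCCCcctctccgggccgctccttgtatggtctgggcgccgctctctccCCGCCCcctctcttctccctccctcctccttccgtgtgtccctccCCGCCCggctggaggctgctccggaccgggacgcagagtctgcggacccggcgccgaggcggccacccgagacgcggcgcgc
ARHGDIA: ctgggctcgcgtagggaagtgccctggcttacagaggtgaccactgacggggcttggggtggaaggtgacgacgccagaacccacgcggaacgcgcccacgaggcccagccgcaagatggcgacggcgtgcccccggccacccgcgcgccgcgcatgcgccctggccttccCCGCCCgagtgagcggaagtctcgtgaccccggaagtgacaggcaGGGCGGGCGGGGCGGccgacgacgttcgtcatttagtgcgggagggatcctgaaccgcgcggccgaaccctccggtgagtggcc
ENAH: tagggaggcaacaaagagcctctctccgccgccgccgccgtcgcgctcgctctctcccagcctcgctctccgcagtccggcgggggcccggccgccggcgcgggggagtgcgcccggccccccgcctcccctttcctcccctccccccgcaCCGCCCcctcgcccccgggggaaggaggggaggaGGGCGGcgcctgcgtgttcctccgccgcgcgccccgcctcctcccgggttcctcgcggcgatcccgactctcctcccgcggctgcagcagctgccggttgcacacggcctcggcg

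The 3 tested genes with a CArG box were ACTN1, CNN2 and TPM4, of which CNN2 alone was called with the probe sets used, in IL-13 24 h against control 0 h. A second TPM4 set was called in control 24 h against control 0 h (-0.69, adjusted p = 0.00243), and the 2 other ACTN1 sets were called in IL-13 24 h against control 0 h, as given above. The box with 15 bases on each side is shown with the box in capitals. The 3 genes were picked because their windows hold it, so that they share it is no result. The other genes with a box, ACTG1, ARHGDIB and FLNA, were not tested. ACTN1 lies at chr14:68977713-68977752 (-), CNN2 at chr19:1026504-1026543 (+) and TPM4 at chr19:16067350-16067389 (+). ARHGDIA, CDC42EP1 and ZYX had no CArG box in these windows.
ACTN1: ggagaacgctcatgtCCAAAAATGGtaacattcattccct
CNN2: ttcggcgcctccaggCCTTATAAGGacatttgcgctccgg
TPM4: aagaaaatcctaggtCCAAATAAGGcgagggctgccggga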

How the data were processed

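The deposited values are signal intensities per probe set on a linear scale; how the authors computed these intensities is stated in no label or header used here, and each array's mean after trimming 2% at each end is 150. Each log2 value was log2(intensity + 20), so folds of dim genes are understated, and arrays were quantile normalized because their medians differed by up to 0.269 log2. Each gene was represented by its probe set of highest mean, with cross-hybridizing sets used only where no other existed. Of 11963 genes, 6884 with a mean log2 over 6.33, the median of the probe sets, were tested. The comparisons used limma 3.58.1 in R 4.3.3 with 1 mean per group over 15 arrays, 10 residual degrees of freedom, moderation along a variance trend and two-sided p-values adjusted by Benjamini-Hochberg over all tested genes, with a threshold of 0.05. A fold is 2 to the power of the log2 difference. The steps were tested on simulated data. The precision is limited by 3 arrays per group. Genes called in any comparison or the F test, and the 5 of smallest p in each comparison, are named. The list members, the pathway list and the rules were chosen with earlier results of these data known. Alternatives were other scalings, pseudocounts and filters, the mean of probe sets, every probe set tested on its own, only the compared groups, no variance trend, a replicate block and leaving out each array. Some background on withheld items was omitted.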

Additional observations from a re-analysis of the deposited data

Results flagged for a closer look

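The IL-13 arrays differed between 24 h and 12 h, tested directly by limma, in 4 of the 38 genes (10.5%). The share was 6.20% of all tested genes and 11.5% of the 695 as bright as the median member. ENAH differed by 0.76 log2, and GSN by 0.38, both higher at 24 h on all 3 arrays. TAGLN differed by -0.66 and ZYX by -0.48, both lower at 24 h on all 3 arrays. Untreated cells at 12 h were not part of the design used here, so IL-13 and time in culture cannot be told apart in these 4 differences.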

How the results depend on the processing

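With median scaling 8 genes differed between IL-13 24 h and control 24 h (set mean 0.22) and 26 between control 24 h and control 0 h (set mean -0.529), while the median of all tested genes was then 0.138 and -0.147, and 950 genes were higher and 66 lower in the first, in place of 271 and 211. Scaling to equal medians of tested genes gave set means of 0.091 and -0.394 and 17 genes in the second, with 435 higher and 157 lower of all genes in the first and 109 and 269 in the second; the set mean at 12 h of IL-13 was -0.263 with median scaling. No variance trend left 5 genes for control 24 h, and 173 of all tested genes in place of 249. At 4 h of IL-13, 1 gene passed with the deposited scaling, both other scalings, a pseudocount of 62 and only the compared groups. Of all tested genes 60 to 97 passed in these settings, beside 84 in the main one. PARVA turned to -0.049 (adjusted p = 0.853) with the mean of its probe sets. With every probe set tested on its own, 4 genes were called higher and 2 lower in IL-13 24 h against control 24 h, PARVA in both directions. Of all 9850 probe sets tested, 355 were higher and 285 lower there. Without IL-13 24 h array b, 3 genes were higher and 1 lower in that comparison, beside 237 and 189 of all tested genes. Leaving out 1 array gave 2 to 4 genes for IL-13 24 h against control 24 h (2 without array a of either group), 4 to 10 for control 24 h (4 without control 0 h b or c or control 24 h c, 5 without control 24 h b), 0 at 4 h, 2 to 4 at 12 h (3 without control 0 h a or IL-13 12 h b, 2 without control 0 h b or c or IL-13 12 h c), 6 to 13 at 24 h of IL-13 (6 without IL-13 24 h c, 9 without control 0 h b or c) and 16 to 21 in the F test. The set means then ran from -0.011 to 0.058, -0.351 to -0.283, -0.085 to -0.005, -0.235 to -0.161 and -0.317 to -0.265 in the same order of comparisons. Calls among all tested genes ran from 194 to 539, 66 to 227, 35 to 74, 133 to 188 and 210 to 355. In the F test they ran from 878 to 1257. With all arrays these calls were 482, 249, 84, 285, 473 and 1243. With the replicate letter as a block the counts were 3, 8, 0, 4, 13 and 18 in that order. Over all tested genes they were 390, 194, 60, 235, 379 and 1045. Deviations from the group means correlated at -0.225 to 0.107 between arrays of the same letter. With 3 arrays a group these values cannot settle whether the letters mark pairs. Of 32 calls, 13 held in every setting. The cause of these changes was not tested, and 3 arrays a group limit what could pass.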
